A study of Mus musculus with 24 samples.

Results

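KEAP1 loss was examined in mouse livers whose hepatocytes already lacked NEMO, by comparing NEMOΔhepa/KEAP1Δhepa double knockout livers (3 arrays) with NEMOΔhepa livers (3 arrays). The 6 arrays were chosen by the tissue and genotype in their labels, out of 24 in the series. The series also holds control livers, labelled NEMOf/f, KEAP1Δhepa livers and cultured primary hepatocytes of all 4 genotypes. Double knockout mice carried floxed NEMO and floxed KEAP1 alleles together with the Alfp-Cre transgene, and NEMOΔhepa mice carried the floxed NEMO allele with the same transgene. Alfp-Cre is driven by albumin and alpha-fetoprotein regulatory sequences, so all 6 livers shared the Cre transgene and the loss of NEMO in hepatocytes, while other liver cells are not its intended target. All mice were 8-week-old males. The labels number the replicates without naming animals, so the p-values below measure the spread between these samples, which may in part be technical. Expression is given as log2 values on 1-colour Affymetrix arrays, and a difference of 1 is a doubling. The small number of arrays, 3 a group, sets the precision.

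NEMO is the product of Ikbkg and the scaffold of the IKK complex, through which NF-kB is switched on, and livers without it in hepatocytes are known for hepatocyte death, inflammation, fibrosis and later tumours. KEAP1 is the adaptor through which a CUL3 ubiquitin ligase marks the transcription factor NRF2, encoded by Nfe2l2, for degradation. NRF2 binds antioxidant response elements and drives genes for glutathione and thioredoxin recycling, NADPH supply, quinone and carbonyl reduction, conjugation and export of electrophiles. The comparison asks what loss of KEAP1 adds to livers that lack NEMO.

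Albumin (Alb), a hepatocyte transcript, was high on all 6 arrays. It was at 13.18, 13.19 and 13.16 in the double knockout livers and at 13.26, 13.35 and 13.30 in the NEMO knockout livers. The highest value in the data was 13.62, so Alb may hardly register a smaller hepatocyte share. Ikbkg, deleted in hepatocytes of both groups, was at 6.18, 6.47 and 6.31 in double knockout livers and at 6.26, 6.25 and 6.14 in NEMO knockout livers. Keap1 was at 5.93, 5.75 and 5.82 in double knockout livers, against 6.11, 5.81 and 6.16 in NEMO knockout livers, and the difference of -0.19 ± 0.13 did not pass the test (SE; limma adjusted p = 0.645). The sources used here do not place these probe sets relative to the floxed exons, so they do not check the labels. The level of several known NRF2 targets, such as Slc7a11 and Nqo1, described below, separated the groups on every array. Not every gene of their lists did. Among 20 measured quinone, carbonyl and aldehyde enzymes, the groups lay apart upwards for 15 and downwards for 1. Over all genes these shares were 8.87% and 9.74%.

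The array of double knockout liver 3 stood apart from the other 5. Its correlation with double knockout livers 1 and 2 over all genes was 0.978 and 0.979, against 0.995 between those livers and 0.991 to 0.992 among the NEMO knockout livers. It held 62 genes more than 2 log2 units above every other array, against 0 to 2 such genes on each of the others. Adipoq, the fat cell hormone adiponectin, was at 2.32, 2.54 and 7.17 in double knockout livers 1, 2 and 3 and at 2.42, 2.53 and 2.26 in NEMO knockout livers. Retn, another fat cell hormone, was at 8.87 on that array, and Ucp1, the uncoupling protein of brown fat, at 6.74. Of 18 measured fat cell markers, 16 were highest on that array and 12 exceeded every other array by more than 1, and their mean level was 6.30 there, against 3.91 and 3.78 in double knockout livers 1 and 2 and 3.72 to 4.16 in NEMO knockout livers. Summed on the linear scale the list came to 4076 on that array, against 2976 and 2875 in double knockout livers 1 and 2 and 942 to 3403 in NEMO knockout livers, a sum that includes Pck1, which hepatocytes express strongly. Bile duct keratins were high there as well: Krt7 was at 4.01, 3.91 and 7.81 in double knockout livers and at 3.81, 3.88 and 4.87 in NEMO knockout livers. Of 18 measured bile duct markers 10 were highest on that array, and their mean level was 5.56, 5.64 and 6.78 in double knockout livers and 5.42 to 6.13 in NEMO knockout livers. Over all 18820 genes, 3900 were highest on that array and 355 exceeded every other array by more than 1. Hepatocyte identity genes averaged 9.01, 9.05 and 8.74 in double knockout livers and 9.02 to 9.14 in NEMO knockout livers. Urea cycle and amino acid breakdown genes averaged 10.46, 10.51 and 9.89, against 10.32 to 10.69. Growth hormone and IGF axis genes were not lower on that array (8.33, 8.42 and 8.45). The cause was not tested. The fat cell list (0 of 18 called by limma, 0 at an unadjusted p under 0.05) had a median difference of 0.69 with all 6 arrays and of -0.12 without that array. Retn, Ucp1 and the later genes named as called only without that array were singled out after their values were seen. Calls made only without double knockout liver 3 are given below beside each gene list.

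**Figure D1:**
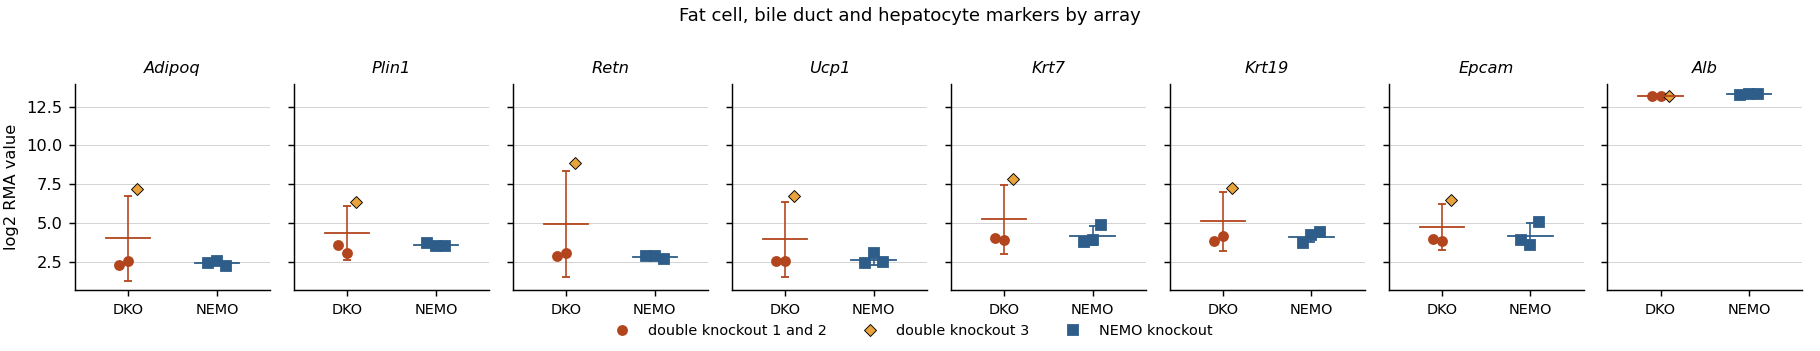
Log2 levels (vertical axes) of fat cell markers (Adipoq, Plin1, Retn, Ucp1), bile duct markers (Krt7, Krt19, Epcam) and Alb in double knockout (DKO) and NEMO knockout livers. Each point is an array, horizontal lines are group means and error bars are SD (n = 3 arrays); double knockout liver 3, the diamond, lies above all others for the fat cell and bile duct markers, with Adipoq at 7.17, while Alb is at 13.16 to 13.35 on all arrays.

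With all 6 arrays, 333 of 18820 genes differed between double knockout and NEMO knockout livers at an adjusted p under 0.05 (limma with Benjamini-Hochberg adjustment over all genes), which is 1.77% of the genes tested. In double knockout livers 186 genes were higher (0.988% of all genes) and 147 were lower (0.781%). Differences of the higher genes ran from 0.43 to 7.01 with a median of 1.03, and those of the lower genes from -4.28 to -0.43. The median over all genes was 0.00. At an unadjusted p under 0.05, 1044 of the 18820 genes were higher and 1214 were lower, the background for such counts in the gene lists below. In every one of the 333 genes the 3 double knockout values lay all above or all below the 3 NEMO knockout values, an arrangement seen upwards in 8.87% and downwards in 9.74% of all genes. Without double knockout liver 3 the test called 622 genes (3.3%), 345 higher (1.83%) and 277 lower (1.47%), of which 331 were among the 333. Genes lost without it were Lrrc4c and Trem3 only, and 291 were gained. Each of the other arrays mattered as well: 131 genes were called without double knockout liver 1, 161 without double knockout liver 2, and 184, 164 and 128 without NEMO knockout livers 1, 2 and 3. Of the 108 called genes that the text may name under its naming rule, 59 were called whichever array was left out, and 59 lost their call when the 6 arrays of KEAP1 knockout and control livers joined the fit.

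**Figure D2:**
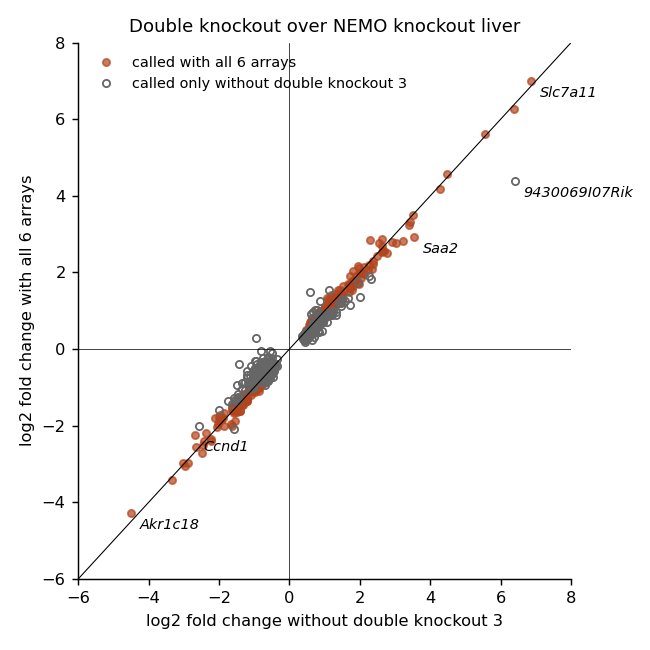
Log2 fold change of double knockout over NEMO knockout liver with all 6 arrays (vertical) against that without double knockout liver 3 (horizontal), for every gene called in either fit. Filled points are the 333 genes called with all 6 arrays, open points the 291 called only without that array, and the diagonal marks equal values; Slc7a11 lies at 7.01 against 6.85, and 9430069I07Rik at 4.40 against 6.40.

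The largest rise was in glutathione supply. Slc7a11, the cystine importer that feeds glutathione synthesis, was at 9.87, 9.62 and 10.23 in double knockout livers, against 3.15, 2.83 and 2.70 in NEMO knockout livers. All double knockout values lay far above all NEMO knockout values, a difference of 7.01 ± 0.18 or 129-fold (SE, n = 3 arrays each; adjusted p = 3.66e-06). Gpx2, a selenium-dependent glutathione peroxidase, was at 9.10, 9.06 and 9.23 in double knockout livers, against 3.23, 3.82 and 3.51 in NEMO knockout livers (5.61 ± 0.16, adjusted p = 3.89e-06). Array levels this low carry little signal beyond background, so folds that start there are likely understated. In the glutathione supply list 6 of 17 measured genes rose and 0 fell (median difference 0.29). The others were Gclc and Gclm, the catalytic and modifier subunits that make gamma-glutamylcysteine, Gsr, which recycles oxidised glutathione, and Gpx4, which reduces lipid hydroperoxides. Gclc was at 12.13, 12.13 and 12.14 in double knockout livers and at 10.90, 10.96 and 10.97 in NEMO knockout livers (1.19 ± 0.08, adjusted p = 0.000385). Gsr rose by 1.16 ± 0.10, Gclm by 0.65 ± 0.08 and Gpx4 by 0.59 ± 0.08, but Gclm and Gpx4 lost their call without at least 1 array (adjusted p up to 0.0918). Gpx3, the secreted peroxidase, was at 5.95, 5.84 and 9.64 in double knockout livers and at 7.06, 6.41 and 7.11 in NEMO knockout livers. Its difference was 0.29 with all 6 arrays (adjusted p = 0.943), and it was called lower only without double knockout liver 3 (-0.96 ± 0.20, adjusted p = 0.045).

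Of the quinone, carbonyl and aldehyde enzymes 9 of 20 measured rose and 0 fell, with a median difference of 0.86, and the same counts held without double knockout liver 3. Cbr3, a carbonyl reductase, was at 9.94, 9.86 and 9.55 in double knockout livers, against 3.82, 3.40 and 3.30 in NEMO knockout livers (6.28 ± 0.17, 77.7-fold, adjusted p = 3.66e-06). Nqo1, the NADPH-dependent quinone reductase used widely as an NRF2 readout, was at 9.25, 9.36 and 9.25 in double knockout livers and at 5.95, 5.84 and 5.58 in NEMO knockout livers (3.50 ± 0.11, adjusted p = 9.08e-06). Neither gene had overlapping groups. Cbr1, the broader carbonyl reductase, rose by 2.20 ± 0.09, and Cyp2a5, a P450 of coumarin and bilirubin oxidation, by 2.14 ± 0.18. Blvrb, which reduces biliverdin and flavins, rose by 1.67 ± 0.14. The aldo-keto reductase Akr1c19 rose by 1.33 ± 0.14 and Ugdh, which makes UDP-glucuronate for conjugation, by 0.91 ± 0.08. Akr1c13 (0.94 ± 0.14) and the aldehyde oxidase Aox1 (0.91 ± 0.14) were also called but not in every fit with an array left out (adjusted p up to 0.111).

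In the thioredoxin system 3 of 11 genes rose and 0 fell. Srxn1, sulfiredoxin, which repairs over-oxidised peroxiredoxins, was at 9.70, 9.56 and 9.69 in double knockout livers and at 7.75, 7.60 and 7.89 in NEMO knockout livers (1.90 ± 0.10, adjusted p = 0.000143). Txnrd1, the cytosolic thioredoxin reductase, rose by 1.12 ± 0.10, and Txn1, thioredoxin itself, by 0.57 ± 0.09, although Txn1 lost its call without at least 1 array (adjusted p up to 0.117). Of 13 genes for NADPH supply, 3 rose and 0 fell, all of them in the pentose phosphate pathway. Pgd, its second dehydrogenase, was at 10.15, 9.97 and 10.20 in double knockout livers, against 8.30, 8.33 and 8.59 in NEMO knockout livers (1.70 ± 0.11, adjusted p = 0.000385). Transketolase (Tkt, 0.76 ± 0.13) and transaldolase (Taldo1, 0.63 ± 0.10), of the branch that returns sugars to glycolysis, were called with all 6 arrays and not in every fit with an array left out (adjusted p up to 0.154).

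Glutathione S-transferases, which couple glutathione to electrophiles, rose in 6 of 17 measured genes and fell in 0 (median 0.43). Gstm4 was at 11.31, 11.17 and 11.16 in double knockout livers and at 9.40, 9.15 and 9.15 in NEMO knockout livers (1.98 ± 0.10, adjusted p = 0.00013). Mgst3 rose by 1.17 ± 0.14, Gsta4 by 1.15 ± 0.10, Gsto1 by 0.92 ± 0.14, Gstm2 by 0.76 ± 0.11 and Gstm1 by 0.45 ± 0.08. Gsto1, Gstm2 and Gstm1 lost their call without at least 1 array (adjusted p up to 0.192). Members of the Gstm cluster are near-identical copies, so their probe sets may share signal. The count was 8 of 17 without double knockout liver 3, with Gstm3 and Gstt3 added.

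Among 14 ABC transporters, 5 rose and 0 fell, with a median difference of 0.89. Abcc4, an exporter of bile acid and drug conjugates at the blood-facing membrane of hepatocytes, was at 10.07, 10.03 and 10.33 in double knockout livers and at 5.90, 5.56 and 5.27 in NEMO knockout livers (4.57 ± 0.16, 23.7-fold, adjusted p = 1.34e-05). Abcc12, a relative with less known substrates, was at 6.78, 7.08 and 6.71 in double knockout livers, against 4.42, 4.81 and 4.45 in NEMO knockout livers (2.29 ± 0.16). The groups were apart for both genes. Abcc3, another blood-facing exporter of conjugates, rose by 1.16 ± 0.17, and the pumps into bile Abcg2 and Abcc2 by 0.63 ± 0.10 and 0.59 ± 0.10. These 3 lost their call without at least 1 array (adjusted p up to 0.157). The count was 8 of 14 when double knockout liver 3 was left out, adding Abcc5 and the sterol exporters Abcg5 (adjusted p = 0.0126) and Abcg8 (1.95 ± 0.33, adjusted p = 0.0183).

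**Figure D3:**
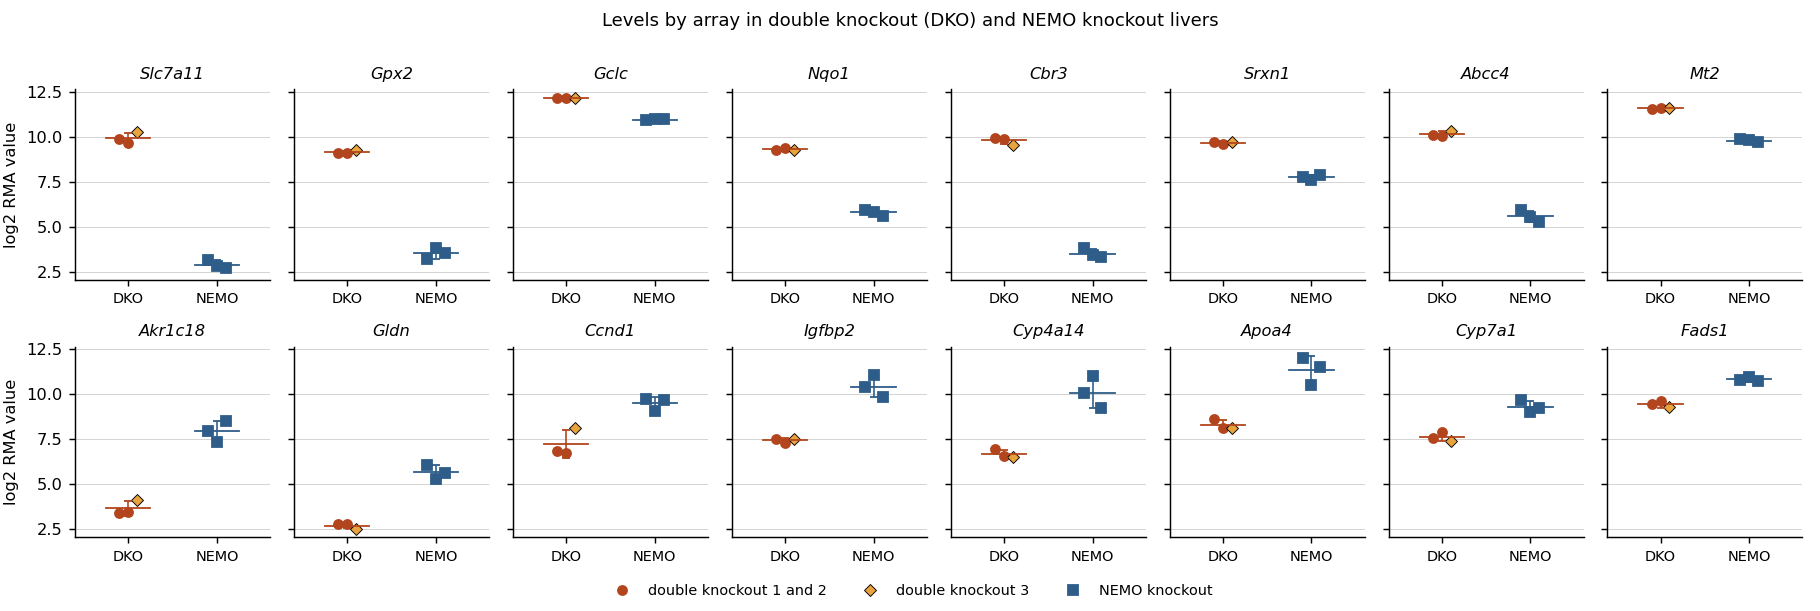
Log2 levels (vertical axes) of 16 genes on each array of double knockout (DKO) and NEMO knockout livers; points are arrays, with double knockout liver 3 as a diamond, horizontal lines are means and error bars SD (n = 3 arrays). The 8 genes of the upper row are higher on every double knockout array (Slc7a11 9.62 to 10.23 against 2.70 to 3.15), and the 8 of the lower row are lower on every one (Akr1c18 3.39 to 4.10 against 7.32 to 8.48).

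The antioxidant response element has the core TGACNNNGC, and it was looked for on both strands in the 250 bases before the annotated starts of genes (RefSeq, GRCm38.p6). Promoters of 4 genes that rose are shown because they hold this core and belong to 4 of the systems described here, Mt2 to the metal handling genes of the next paragraph: Txnrd1 (chr10:82858956-82859205, plus strand), Gclm (chr3:122245307-122245556, plus strand), Ugdh (chr5:65435843-65436092, minus strand, with 2 matches) and Mt2 (chr8:94172368-94172617, plus strand). Each is written 5′ to 3′ along the gene and ends at the base before the start, with the core in capitals, in reverse complement where it lies on the other strand.
Txnrd1: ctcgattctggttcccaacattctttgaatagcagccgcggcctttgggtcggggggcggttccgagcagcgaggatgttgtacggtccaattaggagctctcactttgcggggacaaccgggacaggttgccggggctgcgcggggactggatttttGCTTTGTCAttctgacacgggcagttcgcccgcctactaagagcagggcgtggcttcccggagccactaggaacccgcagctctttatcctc
Gclm: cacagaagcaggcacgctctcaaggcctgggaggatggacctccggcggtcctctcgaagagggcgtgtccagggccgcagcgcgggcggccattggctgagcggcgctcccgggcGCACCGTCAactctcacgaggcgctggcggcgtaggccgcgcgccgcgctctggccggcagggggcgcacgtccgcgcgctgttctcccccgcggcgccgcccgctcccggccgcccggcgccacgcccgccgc
Ugdh: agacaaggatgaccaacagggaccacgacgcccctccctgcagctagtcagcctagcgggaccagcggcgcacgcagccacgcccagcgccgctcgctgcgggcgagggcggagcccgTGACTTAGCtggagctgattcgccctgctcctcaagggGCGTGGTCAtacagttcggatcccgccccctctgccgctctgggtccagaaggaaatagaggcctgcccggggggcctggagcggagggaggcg
Mt2: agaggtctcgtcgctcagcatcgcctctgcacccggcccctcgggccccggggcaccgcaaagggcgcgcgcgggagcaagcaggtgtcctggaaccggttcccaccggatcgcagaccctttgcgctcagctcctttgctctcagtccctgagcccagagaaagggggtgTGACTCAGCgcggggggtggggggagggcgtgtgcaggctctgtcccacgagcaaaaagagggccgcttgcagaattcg
The match begins 92 bases before the start in Txnrd1, 134 in Gclm and 79 in Mt2. Of the genes with a promoter in the table, 24 of 153 that were higher (15.7%) and 15 of 118 that were lower (12.7%) had the core in this window, against 1868 of all 14749 measured genes (12.7%). The share among higher genes was thus near that of all genes, and a match is only a description of these letters.

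Metal and haem handling genes rose in 5 of 29 and fell in 0: Mt1, Mt2, Slc40a1, Lcn2 and Blvrb, given above. Mt2, a metallothionein that binds zinc and copper, was at 11.52, 11.60 and 11.56 in double knockout livers and at 9.86, 9.80 and 9.68 in NEMO knockout livers (1.78 ± 0.08, adjusted p = 8.4e-05). Its neighbour Mt1 rose by 1.12 ± 0.10. Heph, the ferroxidase hephaestin that loads exported iron onto transferrin, is not in that list and was among the 15 largest rises. Its level was 7.51, 7.08 and 6.99 in double knockout livers and 4.24, 4.59 and 4.36 in NEMO knockout livers (2.80 ± 0.17). The iron exporter Slc40a1 rose by 0.56 ± 0.11 and Lcn2, lipocalin 2, which sequesters bacterial iron carriers, by 2.12 ± 0.34. Slc40a1 and Lcn2 lost their call without at least 1 array (adjusted p up to 0.196). Leaving out double knockout liver 3 gave 9 of 29, with Ftl1, Hfe, Fech and Slc39a4 added.

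Uptake carriers were among the largest rises, with 5 of 25 higher and 0 lower, and all 5 were called whichever array was left out. Without double knockout liver 3 the amino acid carrier Slc43a1 (-1.07 ± 0.16) and the purine carrier Slc43a3 (-0.50 ± 0.10) were called lower as well. Slc1a1, which takes up glutamate and cysteine, was at 7.26, 7.23 and 6.95 in double knockout livers and at 3.10, 2.88 and 2.88 in NEMO knockout livers (4.19 ± 0.15, adjusted p = 1.16e-05). Slc22a12, known as the urate transporter of the kidney, was at 7.45, 7.64 and 7.02 in double knockout livers, against 4.18, 3.81 and 4.43 in NEMO knockout livers (3.23 ± 0.21). The groups did not overlap for either. The glycine carrier Slc6a9 rose by 1.69 ± 0.14, the neutral amino acid carrier Slc1a4 by 1.55 ± 0.20 and the glucose carrier Slc2a1 by 1.02 ± 0.09.

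Several of the 15 largest rises belong to genes better known from other tissues. Anxa13, an annexin of gut and kidney epithelium that was in the bile duct list, was at 7.70, 7.54 and 7.25 in double knockout livers and at 3.93, 4.19 and 4.46 in NEMO knockout livers (3.31 ± 0.18, adjusted p = 0.000143). Gucy2c, the intestinal receptor of guanylin, was at 6.87, 7.07 and 5.76 in double knockout livers and at 4.25, 3.56 and 3.46 in NEMO knockout livers (2.81 ± 0.36). Gipc2, a PDZ domain protein, rose by 2.78 ± 0.24. Anxa13 and Gucy2c were lowest of the double knockout livers on array 3, where the bile duct keratins Krt7 and Krt19 were highest. Of 12 measured gallbladder, pancreas and gut markers, 0 rose and 2 fell, Fabp1 and Fabp2, with a median difference of -0.12. Both lost their call without at least 1 array (limma adjusted p up to 0.111). Il1f9, which encodes interleukin-36 gamma, was at 5.67, 5.04 and 6.11 in double knockout livers, against 2.82, 2.60 and 2.74 in NEMO knockout livers (2.88 ± 0.26, adjusted p = 0.00191), the call in a list of 15 interleukin-1 family genes; Il1rn, the receptor antagonist, was called lower only without double knockout liver 3 (-0.81 ± 0.15). Serpinb1a, an inhibitor of neutrophil proteases, rose by 2.77 ± 0.34. Elovl7, a fatty acid elongase, was at 6.74, 6.23 and 8.11 in double knockout livers and at 4.31, 3.66 and 4.58 in NEMO knockout livers (2.84 ± 0.46). Gucy2c, Elovl7 and Saa2 lost their call without at least 1 array (adjusted p up to 0.203).

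Acute phase genes, which hepatocytes switch on in inflammation, rose in 4 of 23 and fell in 0: Saa2, Lcn2, Mt1 and Mt2. Only Mt1 and Mt2 were called whichever array was left out, while Saa2 and Lcn2 were not (limma adjusted p up to 0.203). Mt1 and Mt2 are known as metal-responsive genes too. Saa2, a serum amyloid A, was at 10.89, 11.38 and 9.25 in double knockout livers and at 8.45, 7.30 and 7.03 in NEMO knockout livers (2.92 ± 0.56, adjusted p = 0.0494). Without double knockout liver 3 the count was 8 of 23, adding Orm2, Orm3, Saa4 and Lbp, each of which was lowest in double knockout liver 3 among the double knockout livers.

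Enzymes of glycogen and conjugation moved in both directions. Gbe1, the glycogen branching enzyme, was at 10.48, 10.42 and 10.33 in double knockout livers and at 9.40, 9.05 and 9.13 in NEMO knockout livers (1.22 ± 0.11, adjusted p = 0.00191). Ugp2, which makes UDP-glucose, rose by 0.99 ± 0.09, while the liver pyruvate kinase Pklr fell by 1.36 on the log2 scale (SE 0.16), and these were the calls among 19 genes of gluconeogenesis and glycogen, to which Ppp1r3c, a glycogen-targeting phosphatase subunit, was added as higher without double knockout liver 3 (1.31 ± 0.13). Of 29 UGT, sulfotransferase and carboxylesterase genes, 4 rose (Ugt2b35, Ugt2b5, Ces1g and Ugt2b34, by 0.46 to 1.11) and the sulfotransferases Sult1a1 and Sult1c2 fell by 1.05 and 1.04 on the log2 scale. Ugt2b34 and Sult1c2 were not called in every fit with an array left out (adjusted p up to 0.165). These counts were 10 and 4 without double knockout liver 3. In 21 genes of the unfolded protein and integrated stress responses, Dnajb9, a chaperone cofactor of the endoplasmic reticulum, rose by 1.00 ± 0.09, Trib3 by 1.04 ± 0.18, and 0 fell; Trib3 reached an adjusted p of 0.132 with an array left out. Of 34 drug-metabolising P450 genes only Cyp2a5 was called with all 6 arrays, and without double knockout liver 3 Cyp2a22 (-1.58 ± 0.25) and Cyp2c23 (-0.48 ± 0.10) were called lower too. No call was made by limma among 35 proteasome subunits (median 0.01; 6 higher and 2 lower at an unadjusted p under 0.05), although Psmb5 was called without double knockout liver 3 (0.45 ± 0.09).

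**Figure D4:**
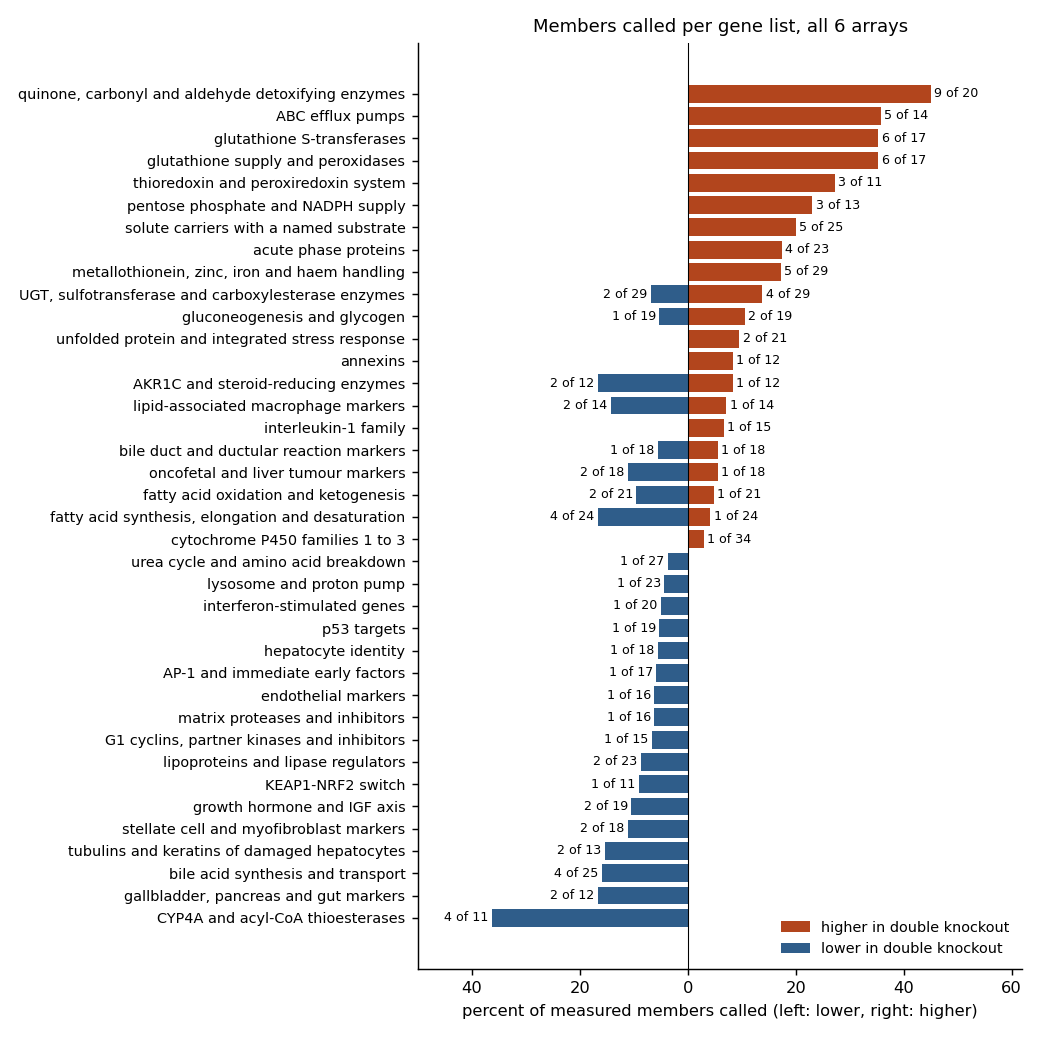
Percent of the measured members of each gene list called higher (bars to the right) or lower (bars to the left) in double knockout than in NEMO knockout livers with all 6 arrays, for the lists with at least 1 call; numbers beside bars are called of measured. The share among all genes is 0.988% higher and 0.781% lower; quinone, carbonyl and aldehyde enzymes reach 9 of 20 higher and CYP4A and acyl-CoA thioesterases 4 of 11 lower.

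The gene that fell most was Akr1c18, the mouse 20-alpha-hydroxysteroid dehydrogenase that inactivates progesterone. It was at 3.39, 3.45 and 4.10 in double knockout livers, against 7.97, 7.32 and 8.48 in NEMO knockout livers. The groups were far apart (-4.28 ± 0.31, 19.4-fold lower, adjusted p = 0.000725). Its relatives Akr1c13 and Akr1c19 rose, as given above, as did the bile acid reductase Akr1d1 (0.96 ± 0.16), though not in every fit with an array left out. Akr1c12 was called higher only without double knockout liver 3 (0.72 ± 0.11, adjusted p = 0.00995). Hsd3b5, a male-biased steroid reductase, was at 3.45, 4.21 and 3.16 in double knockout livers and at 7.32, 5.15 and 6.47 in NEMO knockout livers (-2.71 ± 0.52, adjusted p = 0.0491). Of 12 measured AKR1C and steroid-reducing enzymes, listed apart from Akr1c13 and Akr1c19, 1 rose and 2 fell. Their median difference was -0.26, and 3 of the 12 lay above 0. Gldn, which encodes the nerve-node protein gliomedin, was at 2.79, 2.76 and 2.53 in double knockout livers and at 6.08, 5.29 and 5.62 in NEMO knockout livers (-2.97 ± 0.22, adjusted p = 0.000741). Nfe2l2 itself was lower in transcript, at 8.45, 8.48 and 8.83 in double knockout livers and at 9.56, 9.40 and 9.61 in NEMO knockout livers (-0.93 ± 0.12, adjusted p = 0.0103). Both Hsd3b5 and Nfe2l2 lost their call in some fits with an array left out (adjusted p up to 0.189 and 0.0637).

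Ccnd1, cyclin D1, which carries cells into the cycle, was the call among 15 G1 cyclins, kinases and inhibitors. It was at 6.86, 6.72 and 8.10 in double knockout livers and at 9.71, 9.07 and 9.67 in NEMO knockout livers. Double knockout liver 3 was nearest to the NEMO knockout livers, but the groups did not overlap (-2.25 ± 0.35, adjusted p = 0.0218; -2.69 ± 0.18 without it, adjusted p = 0.000252). The call was lost without at least 1 other array (adjusted p up to 0.111). Of 32 genes of S phase and mitosis, 0 were called by limma with all 6 arrays or without double knockout liver 3, and 11 were lower at an unadjusted p under 0.05 with all 6. Their median difference was -0.50, against 0.00 over all genes, 2 of 32 lay above 0, and 13 had groups that did not overlap, all lower in the double knockout, an arrangement that 9.74% of all genes showed. The proliferation marker Mki67 was at 6.18, 6.56 and 7.02 in double knockout livers and at 6.80, 6.99 and 8.36 in NEMO knockout livers, with NEMO knockout liver 3 the highest (-0.79 ± 0.40, adjusted p = 0.506). Of 19 p53 targets, Eda2r, a receptor of the TNF receptor family, fell by 1.34 on the log2 scale (SE 0.21) and 0 rose, a call lost without at least 1 array (adjusted p up to 0.103). In a bulk liver, fewer cells of a type and less RNA per cell cannot be told apart.

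Oncofetal and tumour markers moved in both directions. The RNA-binding protein gene Igf2bp3 was at 3.74, 3.75 and 4.16 in double knockout livers and at 4.76, 5.04 and 5.43 in NEMO knockout livers (-1.19 ± 0.21), and the guidance receptor Robo1 was at 6.56, 6.47 and 6.15 in double knockout livers and at 7.84, 7.53 and 7.81 in NEMO knockout livers (-1.33 ± 0.14). Lcn2 rose, and these 3 were the calls in 18 genes; Igf2bp3 and Lcn2 lost theirs without at least 1 array (adjusted p up to 0.157). Afp, alpha-fetoprotein, was at 3.79, 3.23 and 4.68 in double knockout livers and at 4.13, 3.89 and 3.96 in NEMO knockout livers (-0.09 ± 0.33, adjusted p = 0.949). Tuba8 and Tubb2a, tubulins in a list of 13 genes linked to hepatocyte damage, fell by 1.85 and 0.79 on the log2 scale, Tubb2a not in every fit with an array left out (adjusted p up to 0.155).

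Fatty acid genes fell in several lists. Cyp4a14, a fatty acid omega-hydroxylase and classical PPARalpha target, was at 6.94, 6.56 and 6.50 in double knockout livers and at 10.03, 10.98 and 9.23 in NEMO knockout livers (-3.42 ± 0.38, 10.7-fold lower, adjusted p = 0.00518). The hydroxylase Cyp4a31 (-1.61 ± 0.25) and 2 acyl-CoA thioesterases, Acot2 (-1.29 ± 0.17) and Acot1 (-0.73 ± 0.12), fell too, so that 4 of 11 genes of that list fell and 0 rose. Cyp4a31, Acot2 and Acot1 lost their call without at least 1 array (adjusted p up to 0.11). Cyp4a and Acot genes are close paralogs, and shared probe signal cannot be told apart. The desaturase Fads1 was at 9.42, 9.64 and 9.26 in double knockout livers and at 10.76, 10.94 and 10.72 in NEMO knockout livers (-1.37 ± 0.12, adjusted p = 0.00162). Its partner Fads2 fell by 1.07 on the log2 scale, and the elongases Elovl6 and Elovl5 by 1.02 and 0.90. These were the 4 falls among 24 genes of fatty acid synthesis, elongation and desaturation, in which Elovl7 alone rose. Elovl5 and Elovl7 lost their call in at least 1 fit with an array left out (adjusted p up to 0.119). The falls were 7 without double knockout liver 3, adding Fasn (-1.09 ± 0.17), Acaca (-0.64 ± 0.12) and Elovl2 (-0.61 ± 0.11). Fasn was at 9.37, 9.15 and 9.94 in double knockout livers and at 10.00, 10.45 and 10.61 in NEMO knockout livers. Fat cells express it too, and like the fat cell markers it was highest among double knockout livers on array 3; their part was not tested.

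In 21 genes of fatty acid oxidation and ketogenesis, Bdh1, which interconverts ketone bodies, and the fatty acid binding protein Fabp1 fell by 0.80 and 0.79 on the log2 scale (adjusted p up to 0.111 with an array left out), while the fatty acid receptor Cd36 rose by 1.01 ± 0.10. The thiolase Acaa2 was called lower in addition without double knockout liver 3 (-0.36 ± 0.08). Cd36 was at 10.32, 10.29 and 10.21 in double knockout livers and at 9.42, 9.14 and 9.22 in NEMO knockout livers. Of 23 lipoprotein and lipase genes, 2 fell and 0 rose. Apoa4, an apolipoprotein of triglyceride-rich particles, was at 8.63, 8.12 and 8.10 in double knockout livers and at 12.02, 10.49 and 11.48 in NEMO knockout livers (-3.05 ± 0.35, 8.27-fold lower, adjusted p = 0.00586). Apom, which carries sphingosine 1-phosphate on HDL, fell by 0.93 on the log2 scale, with an adjusted p of up to 0.0958 when an array was left out. None of 18 cholesterol synthesis genes was called by limma (median -0.21; 4 lower at an unadjusted p under 0.05), and none was without double knockout liver 3.

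Cyp7a1, the rate-limiting enzyme of bile acid synthesis, was at 7.57, 7.87 and 7.39 in double knockout livers and at 9.66, 9.01 and 9.21 in NEMO knockout livers (-1.68 ± 0.19, 3.21-fold lower, adjusted p = 0.00502). The bile acid importer Slc10a2 fell by 1.11 on the log2 scale and Slco1a1, a male-biased importer of organic anions, by 2.18. Slco1a1 was at 6.34, 8.08 and 7.77 in double knockout livers, a wide spread, and at 9.36, 9.94 and 9.45 in NEMO knockout livers. With Amacr, 4 of 25 genes of bile acid synthesis and transport fell and 0 rose; Amacr and Slco1a1 lost their call without at least 1 array (adjusted p up to 0.193). Nr0b2, the nuclear receptor SHP known to repress Cyp7a1, was called higher only without double knockout liver 3 (1.48 ± 0.24, adjusted p = 0.0154), as was Acox2. Nr0b2 was at 8.04, 7.87 and 7.31 in double knockout livers and at 6.81, 6.69 and 5.91 in NEMO knockout livers, groups that did not overlap.

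Igfbp2, a binding protein of insulin-like growth factors, was at 7.51, 7.26 and 7.52 in double knockout livers, against 10.37, 11.03 and 9.85 in NEMO knockout livers (-2.98 ± 0.26, 7.92-fold lower, adjusted p = 0.00167). With the transcription factor Onecut1 (-1.36 ± 0.23), 2 of 19 genes of the growth hormone and IGF axis fell and 0 rose; the falls were 4 without double knockout liver 3, with Socs2 (-1.26 ± 0.20) and Mup3 (-0.63 ± 0.14) added. Of 18 hepatocyte identity genes only Foxa3, a liver transcription factor, was called (-1.13 ± 0.15), and Hnf4a differed by -0.31 ± 0.13 (adjusted p = 0.416). Kyat3, an aminotransferase of kynurenine, was the call among 27 genes of the urea cycle and amino acid breakdown. It was at 8.45, 8.37 and 7.24 in double knockout livers and at 9.81, 10.12 and 10.15 in NEMO knockout livers, lowest on array 3 (-2.01 ± 0.30; -1.62 ± 0.11 without it). Without that array the urea cycle enzyme Arg1 was also called higher (0.51 ± 0.10) and Cbs, of homocysteine breakdown, lower (-0.61 ± 0.13). Onecut1, Foxa3 and Kyat3 lost their call without at least 1 array (adjusted p up to 0.139, 0.0567 and 0.0967). Membrane receptors were among the 15 largest falls as well. Avpr1a, the vasopressin receptor of hepatocytes, was at 5.58, 5.77 and 5.83 in double knockout livers and at 7.80, 8.30 and 8.24 in NEMO knockout livers (-2.39 ± 0.15). The melatonin receptor Mtnr1a fell by 2.35 and the adhesion receptor Adgrf1 by 2.41 on the log2 scale. Nxpe2, Prelid2, the TGF-beta family member Gdf10 and Acnat2, an acyltransferase of bile and fatty acids, completed these falls at -2.57, -2.50, -2.04 and -2.02, and Gdf10 lost its call without at least 1 array (adjusted p up to 0.0524).

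Lists of matrix and of cells other than hepatocytes held few calls, and several moved with double knockout liver 3. Of 25 collagens and matrix genes 0 passed the limma test when every array was in (median -0.01; 1 higher and 1 lower at an unadjusted p under 0.05). Col1a1, a fibrillar collagen chain, was at 7.66, 7.70 and 9.39 in double knockout livers and at 8.33, 7.89 and 8.81 in NEMO knockout livers. Its highest value was thus on the array with the fat cell and bile duct transcripts. On that array 22 of the 25 genes were highest, against 3900 of all 18820 genes. Without that array the median was -0.36 and 2 genes were called lower, Bgn (-0.91 ± 0.12) and Eln (-0.96 ± 0.21). Mmp13, a collagenase, fell by 1.27 on the log2 scale with all 6 arrays (SE 0.19), and Mmp14 was called lower only without double knockout liver 3 (adjusted p = 0.00487). Among 18 stellate cell markers, Reln (-0.86 ± 0.14) and Hgf (-0.50 ± 0.09) fell with all 6 arrays. Mmp13, Reln and Hgf lost their call without at least 1 array (adjusted p up to 0.0809 for Mmp13 and 0.166 for the others). Cygb, a stellate cell globin, was at 6.60, 6.75 and 8.27 in double knockout livers and at 7.98, 7.68 and 7.96 in NEMO knockout livers, and was called only without double knockout liver 3 (-1.20 ± 0.12, adjusted p = 0.00146). The part of the fat cell and bile duct transcripts in these differences was not tested.

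None of 18 macrophage markers was called by limma with all 6 arrays (3 higher and 1 lower at an unadjusted p under 0.05). The Kupffer cell lectin Clec4f was at 9.34, 9.07 and 8.69 in double knockout livers and at 8.69, 9.07 and 8.93 in NEMO knockout livers. Cd5l, secreted by macrophages, was called higher only without double knockout liver 3 (0.57 ± 0.10). In the lipid-associated macrophage list, Atp6v0d2, a proton pump subunit, and Fabp5 fell by 1.37 and 0.74 on the log2 scale and Cd36 rose, a gene hepatocytes and fat cells express too. Gpnmb and Cd63 were called lower in addition without double knockout liver 3 (-1.46 ± 0.30 and -1.48 ± 0.24), as was Npc1 in a list of 23 lysosome genes (-0.47 ± 0.10) in which Atp6v0d2 was the call. MHC class II genes, with 0 of 8 called in either fit (0 at an unadjusted p under 0.05 with all 6 arrays), had a median of -0.41 with all 6 arrays and of -0.80 without double knockout liver 3. H2-Ab1, a class II chain, was at 8.66, 8.92 and 10.33 in double knockout livers and at 10.25, 9.33 and 9.57 in NEMO knockout livers. In the remaining lists, 1 of 16 endothelial markers (Plvap, -0.58 ± 0.10), 1 of 20 interferon-stimulated genes (Bst2, -0.66 ± 0.11) and 1 of 17 immediate early factors (Jund, -0.75 ± 0.10) fell, and none rose with all 6 arrays. Plvap went against most of its list, in which 13 of 16 lay above 0 (median 0.17). The endothelial groups lay apart upwards for 7 genes and downwards for 1, against 8.87% and 9.74% of all genes. Without double knockout liver 3, Emcn of endothelium was called higher (0.66 ± 0.12) and the immediate early factors Jun (-0.66 ± 0.14) and Egr1 (-1.18 ± 0.23) lower. Plvap, Bst2 and Jund each lost the call without at least 1 array (adjusted p up to 0.157), as did Fabp5 (0.0644). Chemokine ligands, death receptor genes, IKK and NF-kB components, clock genes and markers of B cells, T and natural killer cells, muscle, erythroid cells and neutrophils had no limma call with all 6 arrays. At an unadjusted p under 0.05, 4 of 10 neutrophil markers were higher, 3 of 22 chemokine ligands and 3 of 18 death receptor genes lower, and 0 to 2 genes in each of the other lists just named. Without double knockout liver 3 the neutrophil genes Cxcr2 (1.23 ± 0.16) and S100a8 (1.17 ± 0.24) were called higher, and Jchain of plasma cells lower (-1.43 ± 0.30). The neutrophil list averaged only 3.97, 3.82 and 3.62 in double knockout livers and 3.36 to 3.45 in NEMO knockout livers, close to the array background.

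The same genotypes were compared in cultured primary hepatocytes, on 6 arrays that share none with the liver comparison. The labels do not say whether they came from the same mice. There 541 genes were called (2.87% of 18820), 370 higher (1.97%) and 171 lower (0.909%). The genes that were higher in double knockout liver were above 0 in hepatocytes in 185 of 186 cases, the exception being Olfr1049, and 150 of them were called higher there, whereas 9027 of all 18820 genes were above 0. Those lower in liver were below 0 in 140 of 147 cases, and 67 were called lower. Slc7a11 was at 9.14, 9.88 and 8.31 in double knockout hepatocytes and at 3.40, 2.84 and 3.01 in NEMO knockout hepatocytes, a difference of 6.03 ± 0.31. Gldn was at 2.89, 2.62 and 3.41 in double knockout hepatocytes and at 5.80, 5.77 and 6.52 in NEMO knockout hepatocytes (-3.05 ± 0.26). The array of hepatocyte double knockout 3 went against its label of a male mouse, with Xist at 9.76 and the Y-linked Eif2s3y at 2.71, and without it 163 of 186 and 87 of 147 genes were called the same way.

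The difference between the liver and the hepatocyte response was tested directly over the 12 arrays, and 0 genes passed (limma, 0% of 18820; 909 at an unadjusted p under 0.05). Between 0 and 4 genes passed when an array was left out: 4 without hepatocyte double knockout 1, 2 each without liver double knockout 2 or 3, and 1 each without liver NEMO knockout 1 or hepatocyte double knockout 3. Leaving out the double knockout 3 arrays of both tissues let 3 pass (0.0159%): 9430069I07Rik with a positive difference (0.00531%), and Gpx3 and Prelid2 with negative ones (0.0106%). Prelid2 was at 4.45, 4.13 and 4.17 in double knockout livers and at 6.56, 6.75 and 6.94 in NEMO knockout livers, but at 5.63, 6.44 and 4.42 in double knockout hepatocytes and 3.69, 4.19 and 4.34 in NEMO knockout hepatocytes. The change in liver minus that in hepatocytes was -3.92 ± 0.53 with all 12 arrays (adjusted p = 0.0818) and -4.42 without the double knockout 3 arrays (adjusted p = 0.000262).

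**Figure D5:**
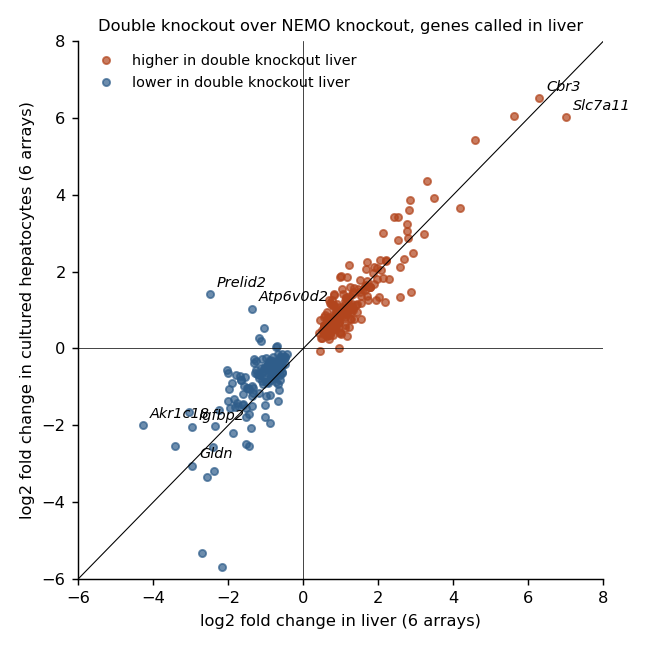
Log2 fold change of double knockout over NEMO knockout in cultured hepatocytes (vertical) against that in liver (horizontal) for the 333 genes called in liver; the diagonal marks equal values, and the 2 tissues share no array. Of 186 genes higher in liver 185 lie above 0 in hepatocytes, and of 147 lower genes 140 lie below 0, with Prelid2 and Atp6v0d2 among those above.

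KEAP1 loss on a NEMO-intact background was measured by KEAP1Δhepa livers against control livers, which share no array with the comparison above. The controls are labelled NEMOf/f, floxed NEMO without a named deletion. Differences of the Cre transgene or of floxed alleles between these groups cannot be told apart from KEAP1 loss. That limit also holds for the difference between backgrounds below. The array labelled liver control 3 went against its label, with Slc7a11 at 9.29, against 2.63 and 2.42 on controls 1 and 2, so the values here leave it out unless stated. KEAP1Δhepa and control livers then differed in 990 genes (5.26%), 699 higher (3.71%) and 291 lower (1.55%) in KEAP1Δhepa livers. Of the 186 genes higher in double knockout than in NEMO knockout liver, 185 lay above 0 there (178 with control 3 included; Trem3 was the exception without it) and 146 were called higher. Of the 147 lower genes, 117 lay below 0 (116 with control 3), 47 were called lower and 3 were called higher, namely Acot2, Ifi27l2b and Robo1. Over all genes, 8585 of 18820 lay above 0.

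Whether the KEAP1 effect differed between the backgrounds was tested over the 12 liver arrays as the double knockout minus NEMO knockout difference less the KEAP1 knockout minus control difference. Akr1c18 and Gldn passed (0.0106% of all genes; 952 genes at an unadjusted p under 0.05). Akr1c18 was low in KEAP1 knockout livers (3.19, 2.99 and 2.66) and control livers (3.56, 3.51 and 3.51) alike, and the difference between the effects was -3.70 ± 0.38 (adjusted p = 0.00444). Gldn was at 2.94, 2.74 and 2.81 in KEAP1 knockout livers and at 2.53, 3.02 and 2.52 in control livers, and its difference was -3.11 ± 0.28 (adjusted p = 0.00218). Both genes were thus high in NEMO knockout livers alone among the 4 genotypes. The count reached 8 without liver double knockout 3, 5 without NEMO knockout 2 and 14 without control 3, and 65 without control 3 and double knockout 3 together (0.345%), 12 positive (0.0638%) and 53 negative (0.282%). Among the 53 were Ccnd1 (-2.98 ± 0.27, adjusted p = 0.00128), Acot2 (-2.20 ± 0.21), Robo1 (-1.82 ± 0.18) and Nfe2l2 (-1.08 ± 0.13). Ccnd1 was at 6.25, 6.66 and 6.78 in KEAP1 knockout livers and at 6.20, 6.35 and 6.97 in control livers, near its level in double knockout livers 1 and 2. Cd36 was at 10.31, 10.03 and 9.93 in KEAP1 knockout livers and at 7.07, 7.37 and 10.08 in control livers, so that its rise with KEAP1 loss was smaller in the NEMO-deficient background (-1.83 ± 0.18, adjusted p = 0.00128 without those arrays, 0.944 with them). The NRF2 targets Slc7a11, Cbr3, Gpx2, Abcc4 and Nqo1 did not pass this test in either fit, with differences between effects of -0.67 to 1.09 and standard errors of 0.23 to 0.39 without those arrays.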

How the data were processed

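Total RNA of 24 samples was measured on 1-colour Affymetrix arrays. The deposited values are on the log2 scale and were made by the authors with RMA, per the submitters' processing notes; for its version and options, nothing is given in the sources used here. Of 35556 probe sets, the platform annotation paired 21218 with 1 symbol, 1881 with several and did not list 12457. The probe set with the highest mean stood for a gene, which gave 18820 genes (1386 with several probe sets), all of which were kept whatever their level.

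Double knockout and NEMO knockout livers were compared in a fit of these 6 arrays with the linear models of limma 3.58.1 (R 4.3.3), moderated by eBayes along a trend on mean level, as two-sided tests with Benjamini-Hochberg adjustment over all genes and calls at an adjusted p under 0.05. Both differences between effects used 12 arrays. The script was tested on simulated data. Errors after ± are standard errors of the fit. The 54 gene lists (950 of 1055 symbols measured; 16 lists without a call) and the members were chosen with earlier results of these data known. Named genes were the 15 largest called differences in each direction with groups apart, called list members, the first 3 measured genes of a list, Ikbkg, Keap1 and Nfe2l2, and genes called in the differences between effects. Alternatives left out each array, added the other liver arrays or a replicate block, used array weights, no trend, robust estimation, quantile normalization, a minimum mean of 4 and means over probe sets. No scan dates or slides were given, so no batch was tested.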

Additional observations from a re-analysis of the deposited data

Results flagged for a closer look

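In the fit of all 12 liver arrays, 2 genes differed in their response to KEAP1 loss between livers with and without NEMO. This was the test of the difference itself. That fit includes liver control 3, which went against its label. Without it and double knockout 3, 65 genes passed, Ccnd1, Acot2, Robo1, Nfe2l2 and Cd36 among them. Akr1c18 averaged 3.65 in double knockout livers and 7.92 in NEMO knockout livers, while KEAP1 knockout and control livers lay between 2.66 and 3.56, and the effects differed by -3.70. Gldn averaged 2.70 in double knockout livers and 5.66 in NEMO knockout livers, with KEAP1 knockout and control livers between 2.52 and 3.02, and the effects differed by -3.11. Both differences also passed without liver control 3 and double knockout 3, at -3.92 ± 0.39 for Akr1c18 and -2.95 ± 0.32 for Gldn (limma adjusted p = 0.00128 and 0.00183).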

How the results depend on the processing

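For double knockout against NEMO knockout liver, the count of 333 called genes ranged from 128 to 622 when 1 array was left out. It was 197 with all 12 liver arrays in the fit (156 of them among the 333), 515 with the replicate block (313 shared) and 593 with array weights (333 shared), and 264 to 397 with no trend, robust estimation, quantile normalization, the minimum mean or means over probe sets. None of the 108 named called genes changed direction under these settings. Genes named without a call could: Gpx3 was at 0.29 with all 6 arrays and -0.96 without double knockout 3, and Clec4f turned without double knockout 1. Of the 108 named called genes, 59 lost their call with all 12 liver arrays and 46 without double knockout 1 or NEMO knockout 3, against 0 without double knockout 3; 30 were called under every setting. The cause was not tested. Replicate numbers were not used as pairs. Residuals of same-numbered livers correlated at 0.024, 0.210 and 0.258, and those of differently numbered livers at -0.283 to 0.238. These values do not settle whether the numbers pair the arrays, so the block is given as a count only. The difference between backgrounds counted 2 genes, 2 to 14 with 1 array left out, 65 without the arrays in doubt, 4 with the replicate block and 2 without the trend. The liver minus hepatocyte difference counted 0 genes, 0 to 4 with 1 array left out, 3 without the arrays in doubt, 1 with the replicate block and 0 without the trend. For arrays, levels near 3 limit folds, and 3 arrays a group limit all tests.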

Other observations

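Some further groups, partly of genes outside the lists, were put together after the calls were known and so are described without a test. The glycogen and haem sets below were listed by hand, so their counts follow in part from that choice. Over all genes, 0.988% were called higher and 0.781% lower. Of 24 measured MHC class I genes, 4 were lower in double knockout liver and 0 higher (H2-K1, H2-Q1, H2-Q6 and H2-Q8), a family whose near-identical copies can share probes. TGF-beta family ligands were lower in 4 of 32 (Bmp8b, Gdf10, Gdf2 and Inhba) and higher in 0. Serpins, protease inhibitors, were higher in 4 of 48 (Serpina5, Serpinb1a, Serpinb1b and Serpinb9e) and lower in 0. Enzymes of glycogen and UDP-sugars were higher in 6 of 17 (Gbe1, Pgm1, Phkb, Ugdh, Ugp2 and Uxs1) and lower in 0. Of 8 carriers, chaperones and oxidases of haem and iron picked in that way, Heph, Pgrmc1, Slc40a1 and Slc48a1 were higher and Flvcr2 and Hebp2 lower.

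The transcript 9430069I07Rik was at 9.45, 8.31 and 2.89 in double knockout livers 1, 2 and 3 and at 2.70, 2.60 and 2.17 in NEMO knockout livers. On the other 18 arrays of the series it lay between 2.04 and 2.97. Without double knockout liver 3 the difference was 6.40 ± 0.31 (limma adjusted p = 5.31e-05), and with it 4.40 ± 1.46 (adjusted p = 0.261).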
